A study of Mus musculus with 3 samples.

Results

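The genes described here encode the proteasome, its activators, its assembly chaperones and the immunoproteasome. They were chosen by symbol in the array annotation (Psma, Psmb, Psmc, Psmd, Psme, Psmf or Psmg followed by a digit), which gave 49 of 20738 genes, with 70 features on the array. The 5 immunoproteasome genes (Psmb8, Psmb9, Psmb10, Psme1 and Psme2) were set against the other 44 members. RNA of whole proximal jejunum, a part of the small intestine, came from mice with Sox4 knocked out by vilCre, a Cre recombinase driven by the villin promoter that is active in the intestinal epithelium. It was compared with RNA of wild-type whole proximal jejunum on 3 two-colour arrays, each with 1 knockout mouse in Cy5 and wild-type RNA in Cy3. Age and sex were not given in the labels, nor whether the wild-type RNA was pooled, and the cells of the wall that are not epithelium are in the RNA without being targeted by the Cre. Values below were read as ratios on the log2 scale, knockout over wild type, and each ± is the SD over n = 3 arrays. In whole tissue, fewer cells of a type and less RNA per cell cannot be told apart.

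The proteasome degrades proteins tagged with ubiquitin. Its barrel-shaped core holds rings of alpha subunits, which gate the entrance, and rings of beta subunits, some of which cut peptide bonds. A regulatory particle of ATPase and non-ATPase subunits recognises, unfolds and feeds the substrates. Interferon gamma replaces the cutting subunits with those of the immunoproteasome and raises the activator made of the Psme1 and Psme2 products, which alters the peptides offered on MHC class I. The gut epithelium, with its many lymphocytes, is a tissue in which this form is found.

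Sox4, the deleted gene, had ratios of -0.66, 0.18 and -0.46 on arrays 1, 2 and 3 (mean -0.31 ± 0.44, limma adjusted p = 0.332), so on array 2 the library labelled Sox4 knockout was not below wild type in the mean of the 3 Sox4 features. The features disagreed. The lowest of them had -1.21, -0.72 and -0.93, below wild type on every array, and the highest had 0.06, 1.23 and -0.02. Sex-linked genes differed on every array, with Xist at 1.71 ± 0.18. The Y-linked Eif2s3y had -7.28 ± 0.25, Uty -3.05 ± 0.91 and Kdm5d -1.11 ± 0.41. This is the direction of female knockout RNA against wild-type RNA that holds RNA of males. Of 7 fat markers (median -2.12) 5 fell past the adjusted threshold, and of 6 erythroid markers (median -1.29) 2 did, where 0.222% of all genes fell. Lep (-0.12 ± 0.29) and Slc4a1 (-0.09 ± 0.11) had means near 0. These differences lie in the same RNA as every value below. Sex cannot be told apart from genotype on these arrays, and the part of the fat and erythroid differences in the results was not tested. The 10 marker genes of the epithelium had a median of 0.15, between -0.27 for Epcam and 0.83 for Krt19, and none passed the threshold. Of 6 smooth muscle markers 5 had means below 0, where 53.6% of all genes did, and none passed the threshold. At an unadjusted limma p under 0.05, 2 (33.3%) were lower, against 14.3% of all genes, and 0 were higher, against 12%. Their median was -0.54, 0.35 and -0.47 on arrays 1, 2 and 3. The part of smooth muscle in the results was not tested.

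None of the 49 members passed limma's test at an adjusted p of 0.05 over all genes, where 0.328% of all genes did. In simulated ratios the same fit called 0% of changes of 0.5 and 48% of changes of 1. A gene that did not pass, here or below, may thus still have changed. Before adjustment, 8 of the 49 (16.3%) had a p under 0.05, against 26.3% of all genes. The 8 were 6 of higher ratio, Psmb7, Psmb8, Psmb9, Psmd9, Psme1 and Psme3, and 2 of lower ratio, Psma7 and Psmd4. The count of higher ones was 3 without array 1 and 3 without array 2, and that of lower ones was 0 without array 2, 0 without array 3 and 4 with quantile normalization of the arrays. With all 3 arrays, the 6 of higher ratio were 12.2% of members, against 12% of all genes. The 2 of lower ratio were 4.08% of members, against 14.3% of all genes. Member means lay between -0.56 for Psmb2 and 0.73 for Psme3, with a median of -0.07, and the median over all genes was -0.03. The mean was above 0 for 19 members (38.8%), against 46.4% of all genes, and below 0 for 30 (61.2%), against 53.6% of all genes. Means varied less among members than among all genes, with SDs of 0.26 and 0.38. A ratio above 0 on all 3 arrays was found for 11 members (22.4%), against 23.2% of all genes, and a ratio below 0 on all 3 arrays for another 11, against 27.3% of all genes.

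**Figure D1:**
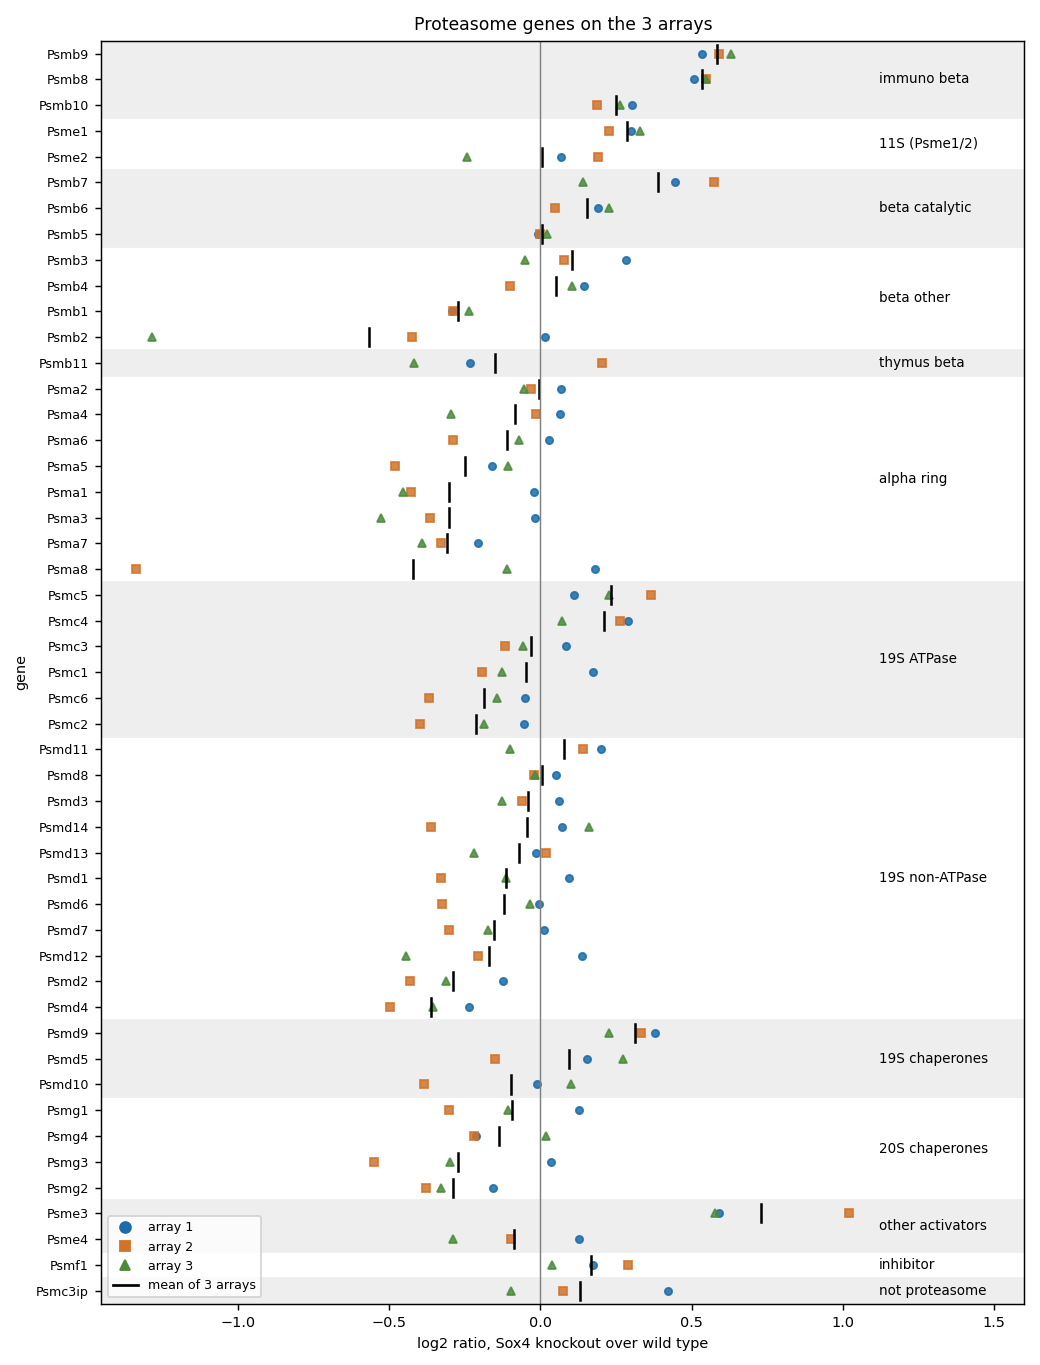
Log2 ratio of knockout over wild type (horizontal axis) of each of the 49 genes (vertical axis) on arrays 1, 2 and 3, grouped by role, with black bars for the mean of the 3 arrays. Psmb8, Psmb9, Psmb10 and Psme1 lie right of 0 on every array, all alpha ring means lie left of 0, and the lone points far to the left are Psmb2 on array 3 and Psma8 on array 2.

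The cutting subunits of the immunoproteasome had the highest median mean ratio of all roles, 0.54 over 3 genes. Psmb8, the interferon-inducible beta5i subunit with chymotrypsin-like activity, had ratios of 0.51, 0.55 and 0.55 on arrays 1, 2 and 3, a mean of 0.54 ± 0.02 or 1.45-fold (95% interval 0.26 to 0.81). Its limma adjusted p was 0.0773 (unadjusted p = 0.00333). The arrays hardly differed, and 0.902% of all genes had a smaller SD over the arrays. Psmb9, the beta1i subunit, had 0.53, 0.59 and 0.63, a mean of 0.59 ± 0.05 or 1.501-fold (95% interval 0.31 to 0.86, limma adjusted p = 0.0715, unadjusted p = 0.00228). Both intervals lie above 0, though neither gene passed over all genes, and 4.95% and 3.83% of all genes had a higher mean than Psmb8 and Psmb9. Psmb10, the beta2i subunit, had 0.30, 0.19 and 0.26, a smaller mean of 0.25 ± 0.06 whose interval reaches 0 (-0.02 to 0.53, limma adjusted p = 0.216).

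Psme1 and Psme2 encode the alpha and beta subunits of the interferon-inducible 11S activator, PA28, which opens the gate of the core. Psme1 had 0.30, 0.23 and 0.33, a mean of 0.29 ± 0.05 (95% interval 0.01 to 0.56, limma adjusted p = 0.178). It was read by 10 features, and all 10 were above 0 on every array, from 0.19 to 0.37 on array 1, 0.17 to 0.34 on array 2 and 0.27 to 0.41 on array 3. The SD over these features was 0.07, 0.06 and 0.04 on the 3 arrays. Whether these features are 1 probe printed repeatedly is not known here, and features of other members scattered more, with 0.33 and -0.34 for the 2 Psmb5 features on array 1. Psme2 gave no steady value, with ratios of 0.07, 0.19 and -0.24 (mean 0.01 ± 0.22). Its 3 features differed, with means of -0.20, 0.05 and 0.16, and the highest one had no accession in the annotation and ranged from -0.36 to 0.65. Without that feature the Psme2 mean was -0.07. The mouse gene table also holds a Psme2-like gene, Psme2b, for which no feature was named here, and the feature sequences that would show whether these genes can be told apart were not used here. Of the 5 immunoproteasome genes, 4 were thus above 0 on all arrays (23.2% of all genes were), and 3 had an unadjusted p under 0.05 with a higher ratio (12% of all genes did).

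The median ratio of the 5 immunoproteasome genes was 0.30, 0.23 and 0.33 on arrays 1, 2 and 3. The median of the other 44 members was 0.06, -0.20 and -0.11. The difference was above 0 on every array, at 0.24, 0.43 and 0.44 (mean 0.37 ± 0.11), and was not tested because the genes were chosen with earlier results known. Leaving out Psme2 raised the mean difference to 0.49. Among the 49 members Psmb9 ranked 2nd, 2nd and 1st by ratio on arrays 1, 2 and 3, and Psmb8 ranked 3rd, 4th and 3rd. Psme2 ranked 25th, 11th and 37th, so it did not share that position. The other members moved with the array, and 16, 32 and 31 of the 44 were below 0 on arrays 1, 2 and 3, while 52.6%, 53% and 50% of all genes were.

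**Figure D2:**
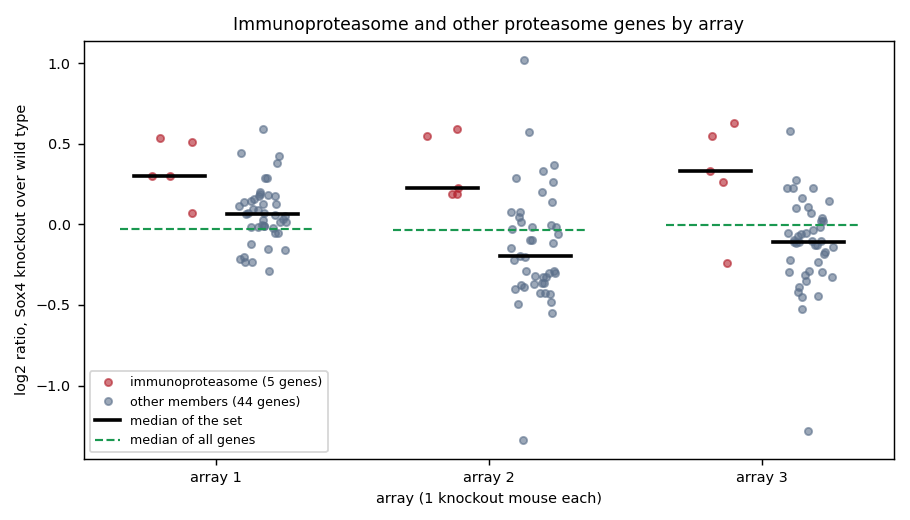
Log2 ratio of knockout over wild type (vertical axis) of the immunoproteasome genes (red) and the other members (grey) on each array (horizontal axis), with black bars for set medians and dashed green lines for the median of all genes. The red medians lie between 0.23 and 0.33 on the 3 arrays, and the grey medians between -0.20 and 0.06.

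Each cutting subunit of the immunoproteasome takes the place of a constitutive one. Psmb5, the beta5 subunit that Psmb8 replaces, had -0.01, -0.00 and 0.02 (mean 0.00 ± 0.02). Its near-zero mean joined 2 features of opposite sign, at 0.13 and -0.13 over the arrays. Psmb8 exceeded Psmb5 by 0.52, 0.55 and 0.53, a mean difference of 0.53 ± 0.02. That SD leaves out the spread between the Psmb5 features, which were 0.33 and -0.34 on array 1. Psmb6, the beta1 subunit with caspase-like activity, had 0.19, 0.05 and 0.23 (mean 0.16 ± 0.09), and Psmb9 exceeded it by 0.34, 0.54 and 0.40 (0.43 ± 0.10). At these sites the immunoproteasome gene was higher on every array. The beta2 site did not follow. Psmb7, the beta2 subunit with trypsin-like activity, had 0.45, 0.58 and 0.14, a mean of 0.39 ± 0.22 (95% interval 0.06 to 0.72, limma adjusted p = 0.150), and Psmb10 minus Psmb7 was -0.14, -0.39 and 0.12 (-0.14 ± 0.25). Psme1 exceeded Psme2 by 0.23, 0.04 and 0.57 (0.28 ± 0.27), with the features of Psme2 in disagreement. With 3 arrays a two-sided exact sign-flip test of a difference cannot give a p below 0.25.

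**Figure D3:**
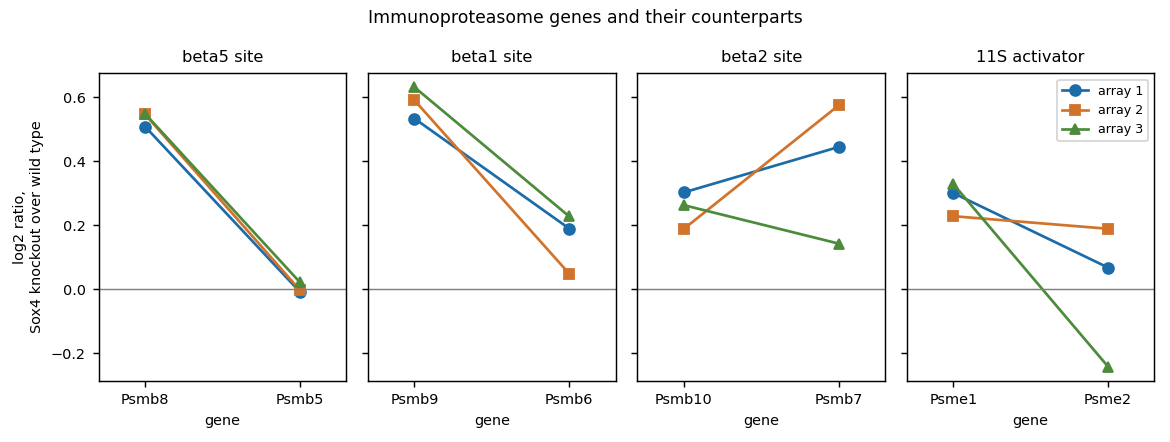
Log2 ratio of knockout over wild type (vertical axis) of each immunoproteasome gene and the constitutive subunit it replaces, and of Psme1 and Psme2 (horizontal axis), with 1 line per array. Lines fall on all arrays from Psmb8 to Psmb5 and from Psmb9 to Psmb6, and cross between Psmb10 and Psmb7.

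Promoter windows were available for 41 of the 49 genes in RefSeq, build GRCm38.p6, each with 250 bases before and 50 after a start of transcription. The windows of Psmb8 and Psmb9, the 2 immunoproteasome genes with the highest ratios, are shown beside those of Psme1 and of Psmb5, the counterpart of Psmb8. Sequences run 5′ to 3′ on the strand of the gene, and capitals mark matches to 3 motifs searched on both strands: the gamma-activated site of STAT factors (TTCNNNGAA), the core of the interferon-stimulated response element (GAAA, any 2 bases, then GAAA) and the antioxidant response element read by NRF factors (TGACNNNGC).
Psmb8, chr17:34197945-34198244, plus strand: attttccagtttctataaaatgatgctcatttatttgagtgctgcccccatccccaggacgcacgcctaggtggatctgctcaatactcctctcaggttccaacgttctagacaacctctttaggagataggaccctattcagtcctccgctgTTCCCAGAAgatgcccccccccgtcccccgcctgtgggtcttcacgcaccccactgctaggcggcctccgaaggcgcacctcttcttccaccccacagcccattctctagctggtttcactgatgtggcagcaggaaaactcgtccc
Psmb9, chr17:34187281-34187580, minus strand: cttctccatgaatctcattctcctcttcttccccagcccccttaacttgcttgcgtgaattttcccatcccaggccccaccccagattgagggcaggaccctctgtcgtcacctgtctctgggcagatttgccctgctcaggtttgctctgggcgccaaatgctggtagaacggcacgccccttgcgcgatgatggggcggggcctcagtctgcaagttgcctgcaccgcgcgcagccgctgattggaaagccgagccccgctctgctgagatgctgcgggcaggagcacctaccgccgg
Psme1, chr14:55578244-55578543, plus strand: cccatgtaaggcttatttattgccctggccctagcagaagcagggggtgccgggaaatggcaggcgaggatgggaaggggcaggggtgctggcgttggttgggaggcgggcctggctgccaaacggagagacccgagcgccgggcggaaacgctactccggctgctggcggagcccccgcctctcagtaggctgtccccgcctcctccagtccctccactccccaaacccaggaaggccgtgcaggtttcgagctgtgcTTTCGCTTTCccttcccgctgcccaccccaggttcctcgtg
Psmb5, chr14:54617946-54618245, minus strand: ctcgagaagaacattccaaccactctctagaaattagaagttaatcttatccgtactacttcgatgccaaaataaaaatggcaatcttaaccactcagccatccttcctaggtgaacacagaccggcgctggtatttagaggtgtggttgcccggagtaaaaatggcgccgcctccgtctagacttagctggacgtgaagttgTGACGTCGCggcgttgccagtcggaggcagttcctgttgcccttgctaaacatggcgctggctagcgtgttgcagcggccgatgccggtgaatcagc
Psmb8 held a gamma-activated site match from base -97 to -89 before the start, and Psme1 a response element core from base 9 to 18 of the window's transcribed part, counted from 0 at the start. The Psmb5 window held an antioxidant response element match from -47 to -39, and the Psmb9 window no exact match to the motifs. Only exact matches within the windows were searched for, so a site that departs from these letters would be missed. Over all 32851 windows, 8.3% held the gamma-activated site, 3.44% the interferon core and 12.4% the antioxidant element. Of the 44 windows of members, 3, 5 and 6 held them. Within the windows of the 5 immunoproteasome genes, 1, 1 and 0 of 6 did.

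Psmb8 and Psmb9 lie on chromosome 17 in the MHC, with the gene order Psmb9, Tap1, Psmb8, Tap2. Tap1 and Tap2 encode the transporter that carries the peptides into the endoplasmic reticulum. Tap1 had ratios of 0.47, 0.37 and 0.62 (mean 0.49 ± 0.13, limma adjusted p = 0.0908), and Tap2 had 0.25, 0.44 and 0.41 (0.36 ± 0.11, limma adjusted p = 0.132). All 4 neighbours were above 0 on every array. H2-Ob, the next gene after Tap2, had -0.05 ± 0.09, and H2-DMb1, on the other side of Psmb9, had 0.50 ± 0.29. Psme1 and Psme2 also lie close together on chromosome 14, separated by Emc9, which had -0.75 ± 0.18 (limma adjusted p = 0.0663), so these neighbours did not share a ratio.

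The wider list of MHC class I peptide loading (12 genes) had 11 means above 0 (46.4% of all genes did), with a median of 0.31. On all 3 arrays 9 of the 12 (75%) were above 0, where 23.2% of all genes were. No gene of the list passed the adjusted threshold. Before adjustment 5 of the 12 had a p under 0.05, all with higher ratios, where 12% of all genes had one in that direction. The classical class I gene H2-D1 had 0.94, 1.16 and 0.83 (0.98 ± 0.17, limma adjusted p = 0.0543), and H2-K1 had 0.40 ± 0.14. The aminopeptidase gene Erap1, which trims the peptides, had 0.48 ± 0.22. Nlrc5, the transactivator of class I genes, stood apart at -0.29 ± 0.17 and was below 0 on every array.

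Genes of interferon gamma signalling did not share that direction. Of 11 measured genes 10 had means below 0 (53.6% of all genes did), with a median of -0.26. On all 3 arrays 7 of the 11 (63.6%) were below 0, where 27.3% of all genes were. None reached the adjusted threshold. Before adjustment, 4 had a p under 0.05 with lower ratios (14.3% of all genes did) and 1 with a higher ratio (12% of all genes did). The cytokine gene Ifng had -0.43, -1.04 and -0.45 (-0.64 ± 0.35, limma adjusted p = 0.0971). Its receptor gene Ifngr1 had -0.52 ± 0.11 and the kinase gene Jak2 -0.41 ± 0.04. Irf8, a factor of myeloid and B cells, was the 1 gene above 0, at 0.46 ± 0.08, and Irf1, which binds the Psmb9 promoter, had -0.01 ± 0.17. Of 18 interferon target genes, 9 had means above 0 and 9 below, with a median of -0.01. By array their median was 0.03, -0.34 and 0.24 on arrays 1, 2 and 3. At an unadjusted p under 0.05, 4 of the 18 (22.2%) were lower, against 14.3% of all genes, and 0 were higher, against 12% of all genes. The 4 were Isg15 (-0.53 ± 0.16), Bst2 (-0.53 ± 0.28), Usp18 (-0.58 ± 0.48) and Gbp3 (-0.33 ± 0.13). Irgm1 (0.46 ± 0.48), Ifit2 (0.44 ± 0.79) and Gbp2 (0.33 ± 0.33) had the highest means of the list, each with signs that differed between arrays. None passed over all genes in either list.

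Leukocytes carry much of the immunoproteasome of a tissue, and 9 of their 13 measured marker genes had means above 0, where 46.4% of all genes did. Their median was 0.14, 0.34 and 0.08 on arrays 1, 2 and 3, and 5 were above 0 on all arrays, where 23.2% of all genes were. At an unadjusted limma p under 0.05, 1 was higher (12% of all genes were) and 1 lower (14.3% of all genes were). Ptprc (CD45, carried by all leukocytes) had 0.29 ± 0.13, the B cell gene Cd79a 0.78 ± 0.54, Ms4a1 0.53 ± 0.61 and the T cell gene Cd8a -0.47 ± 0.14, none past the threshold. Of the 10 epithelial markers, 7 had means above 0, where 46.4% of all genes did, and 4 were above 0 on all arrays, where 23.2% were. At an unadjusted limma p under 0.05, 2 (20%) were higher, against 12% of all genes, and 0 were lower, against 14.3%. The 2 were Krt19 (0.83 ± 0.21) and Vil1 (0.48 ± 0.14). The part of leukocytes and of epithelium in the ratios of Psmb8 and Psmb9 was not tested.

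**Figure D4:**
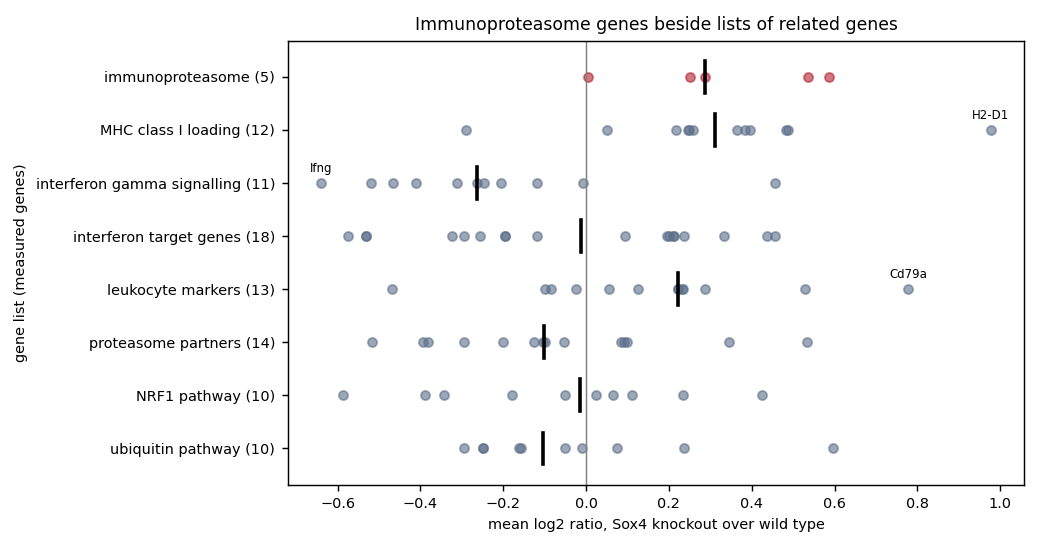
Mean log2 ratio of knockout over wild type (horizontal axis) of each gene of the immunoproteasome (red) and of 7 other lists (vertical axis, number of measured genes in brackets), with black bars for medians. The immunoproteasome and MHC class I loading medians lie at 0.29 and 0.31, and the interferon gamma signalling median at -0.26.

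The activator Psme3 had the highest mean of all members. It encodes PA28 gamma, a nuclear activator that is not induced by interferon. Its 1 feature had 0.59, 1.02 and 0.58, a mean of 0.73 ± 0.25 or 1.66-fold (95% interval 0.38 to 1.08, limma adjusted p = 0.0729, unadjusted p = 0.00250), and 1.80% of all genes had a higher mean. It was above 0 on every array and highest on array 2. Psme4, which encodes the nuclear activator PA200, had 0.13, -0.10 and -0.29 (-0.09 ± 0.21), with 2 features of opposite sign. Psmf1, which encodes the proteasome inhibitor PI31, had 0.18, 0.29 and 0.04 (0.17 ± 0.13), above 0 on every array.

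All 8 genes of the alpha ring had means below 0, where 53.6% of all genes did, with a median of -0.27. Of these, 4 were below 0 on all 3 arrays, where 27.3% of all genes were. Psma7 had -0.20, -0.33 and -0.39, a mean of -0.31 ± 0.09 whose interval stays below 0 (-0.59 to -0.02, limma adjusted p = 0.168). Psma1 and Psma3 were near 0 on array 1 (-0.02 for each) and lower on arrays 2 and 3 (-0.43 and -0.45 for Psma1, -0.36 and -0.53 for Psma3). Psma5 had -0.25 ± 0.20, Psma6 -0.11 ± 0.16 and Psma4 -0.08 ± 0.19. Psma2 had the highest mean of the ring, at -0.01 ± 0.06. The lowest was that of Psma8, the alpha subunit of testis proteasomes, at -0.42 ± 0.80, and it rested on -1.34 on array 2, with 0.18 and -0.11 on arrays 1 and 3.

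The non-catalytic beta subunits did not move together. Psmb2 had the lowest mean of all members, -0.56 ± 0.66, made of 0.02, -0.42 and -1.28 on arrays 1, 2 and 3, so array 3 set it. Psmb1 was the steadiest, at -0.29, -0.29 and -0.24 (-0.27 ± 0.03, limma adjusted p = 0.190). Psmb3 had the highest mean, 0.10 ± 0.17, and Psmb4 had 0.05 ± 0.13. Psmb11, the beta5t subunit of the thymus proteasome, had -0.15 ± 0.32 with signs that differed between arrays.

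Within the regulatory particle, 13 of 17 subunit genes had means below 0, where 53.6% of all genes did, with a median of -0.07. Among the 6 ATPases, which unfold the substrate, Psmc5 was highest at 0.11, 0.37 and 0.23 (0.24 ± 0.13), and Psmc2 lowest at -0.06, -0.40 and -0.19 (-0.21 ± 0.17). Psmc4 (0.21 ± 0.12) joined Psmc5 above 0 on all arrays, and Psmc6 (-0.19 ± 0.16) joined Psmc2 below, so subunits of 1 ring lay on both sides. Psmc1 (-0.05 ± 0.20) and Psmc3 (-0.03 ± 0.11) lay near 0 with features of both signs. Among the 11 non-ATPase subunits, 9 means were below 0. Psmd4, a receptor for ubiquitin chains, had -0.24, -0.50 and -0.35, a mean of -0.36 ± 0.13 (95% interval -0.66 to -0.07, limma adjusted p = 0.138). Psmd2, a scaffold of the base, had -0.29 ± 0.16. Psmd11, a lid subunit, had the highest mean of these, 0.08 ± 0.16, and Psmd14, the deubiquitinase of the lid, had -0.04 ± 0.28. The other 7 of them, Psmd1, Psmd3, Psmd6, Psmd7, Psmd8, Psmd12 and Psmd13, had means between -0.17 for Psmd12 and 0.01 for Psmd8. The medians of the non-ATPase subunits were 0.05, -0.30 and -0.13 on arrays 1, 2 and 3.

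All 4 assembly chaperones of the core had means below 0, where 53.6% of all genes did, from -0.29 ± 0.12 for Psmg2 to -0.09 ± 0.22 for Psmg1. Of the 4, only Psmg2 was below 0 on every array (-0.16, -0.38 and -0.33), where 27.3% of all genes were. None of the 4 had an unadjusted limma p under 0.05, where 26.3% of all genes did. Psmg3 had -0.27 ± 0.29 and Psmg4 -0.14 ± 0.14. Of the 3 chaperones of the base, Psmd9 had 0.38, 0.33 and 0.23, a mean of 0.31 ± 0.08 (95% interval 0.03 to 0.59, limma adjusted p = 0.160), and both of its features were above 0 on every array. Psmd5 had 0.09 ± 0.22, and Psmd10, which is X-linked, had -0.10 ± 0.26. Psmc3ip (0.13 ± 0.26) matched the symbol pattern but encodes a factor of meiotic recombination, not a proteasome protein.

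Of the 12 members with several features, 5 had features of both signs: Psmb5, Psmc1, Psmc3, Psme2 and Psme4. The widest gap was 0.46 for Psme4, and the narrowest was under 0.01 for Psma4 and Psmc2. For the other 37 members, Psmb8, Psmb9, Psmb10 and Psme3 among them, the value rests on 1 feature. Across the 49 members the arrays correlated with Pearson's r of 0.65 (arrays 1 and 2), 0.63 (arrays 1 and 3) and 0.58 (arrays 2 and 3), which describes genes that share arrays, dyes and possibly wild-type RNA. Across the 44 members outside the immunoproteasome r was 0.57, 0.51 and 0.49 for the same pairs of arrays, and across all 20738 genes it was 0.43, 0.57 and 0.41.

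**Figure D5:**
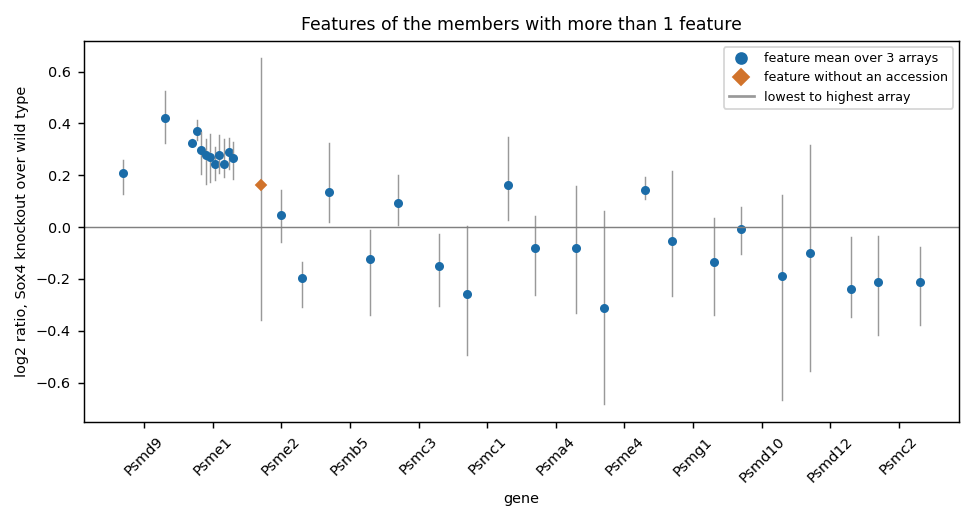
Log2 ratio of knockout over wild type (vertical axis) of every feature of the 12 genes with more than 1 feature (horizontal axis), as the mean over 3 arrays with lines from the lowest to the highest array. The 10 Psme1 features lie together above 0, and the features of Psme2, Psmb5, Psmc3, Psmc1 and Psme4 lie on both sides of 0.

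Genes around the proteasome gave no common direction. Of 14 measured partner and assembly genes, 5 had means above 0 and 9 below, where 46.4% and 53.6% of all genes did. At an unadjusted p under 0.05, 2 (14.3%) were higher, against 12% of all genes. Another 2 (14.3%) were lower, against 14.3% of all genes, and none passed over all genes. The maturation factor gene Pomp had -0.16, -0.26 and -0.76 (-0.39 ± 0.33), and Sem1, a small lid subunit, had -0.38 ± 0.18. The shuttle factor genes Ubqln4 and Ubqln2 had 0.53 ± 0.15 and 0.35 ± 0.15. In the NRF1 pathway, which raises proteasome genes when the proteasome is inhibited, 5 of 10 means were above 0 and 5 below, with none past the threshold. Nfe2l1, which encodes NRF1 itself, had 0.02 ± 0.22, and Ngly1, the glycanase that acts on NRF1, had -0.59 ± 0.63. Mafk, a partner of the NRF factors, had 0.43 ± 0.25, Nfe2l2 -0.39 ± 0.46 and Maff -0.34 ± 0.27. Of 10 measured ubiquitin pathway genes 7 had means below 0, where 53.6% of all genes did, and none passed the threshold. The conjugating enzyme gene Ube2d1 had 0.60 ± 0.29 and its relative Ube2d3 -0.25 ± 0.18. The ligase genes Skp1 and Rbx1 had -0.30 ± 0.14 and -0.25 ± 0.06.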

How the data were processed

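RNA of Sox4 knockout (Cy5) and wild-type (Cy3) whole proximal jejunum was measured on 3 two-colour arrays, which form 1 group. The deposited values, read here as log2 ratios, were computed by the authors for 62976 features on each array. Their background correction and normalization, and the log base and direction, were not given in the sources used here. The values were read as base 2 and as knockout over wild type because of the dyes in the labels. With another base all folds would change, and with the other direction all signs would turn. Array medians of 0.007, 0.003 and 0.011 show that the ratios had been centred, and they were used as they are. Intensities were not used, so dim features stayed in. Precision is limited by the 3 arrays. Without a dye swap a dye effect cannot be told apart from genotype, and testing a ratio against 0 takes no account of how wild-type mice vary. All arrays carry one slide number in the labels.

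The platform annotation gave 1 symbol to 31465 features (several to none), and 31511 were unnamed here. A RefSeq gene table (GRCm38.p6) served to update symbols, with 29036 matched by accession, 2075 by current symbol, 349 by synonym and 5 left as given. Features of a gene were averaged on each array. Means were tested against 0 over all 20738 genes with limma 3.58.1 in R 4.3.3 (lmFit, eBayes, 3.51 prior and 2 residual degrees of freedom, two-sided, Benjamini-Hochberg adjustment, threshold 0.05). The scripts were tested on simulated data.

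The members and lists were chosen with earlier results of these data known. Values were given for the 5 immunoproteasome genes, their counterparts, the highest and lowest member of each role, and the 4 genes of smallest p in each pathway list. Other named genes were chosen after their values were seen. Alternatives were the median of features, re-centred arrays, quantile normalization, robust eBayes, platform symbols as given and each array left out. Tables were made with numpy 2.4.6 and pandas 2.3.3 in Python 3.11.15, and figures with matplotlib 3.10.9.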

Additional observations from a re-analysis of the deposited data

How the results depend on the processing

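No member passed under any alternative, and the adjusted p ranged from 0.0725 to 0.276 for Psmb8, 0.0679 to 0.259 for Psmb9 and 0.0681 to 0.247 for Psme3. Over all genes 68 passed, 10 without array 1 and 4 without array 3 (4 to 66 with 1 array left out), and 48 to 73 under the other alternatives. The immunoproteasome minus other members stayed above 0, at 0.33 to 0.43 with 1 array left out, and was 0.49 without Psme2, an alternative chosen after seeing the data, as were leaving out Psma8, Psmb11 and Psmc3ip (0.37) and the Psme2 feature without an accession. The median of the member means was -0.07, and turned to 0.01 (0.0075) without array 2, with -0.10 as its lowest value with 1 array left out. Psme2, near 0, was -0.0353 with the median of its features, -0.0733 without the feature that has no accession, and -0.0868 (without array 2) to 0.1287 (without array 3) with 1 array left out. Psmb5 was -0.0048 (without array 3) to 0.0102 (without array 1). The cause was not tested. No paired analysis was possible because all arrays form 1 group. Signal over background could not be judged from ratios.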
